A study of Homo sapiens with 14 samples.

Results

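Nascent transcription of A549 cells, a human lung adenocarcinoma line, was compared between 3 h and 15 min of exposure to MS023, from the raw counts of 4 of the 14 libraries of the series. MS023 inhibits the type I arginine methyltransferases. The compared groups were MS023 at 1 µM for 15 min and MS023 at 1 µM for 3 h, each with 2 libraries and 0.01% DMSO, so the inhibitor was present on both sides. Values from 2 libraries of untreated cells, which carry the 15 min label and the same DMSO, and from GSK591 (an inhibitor of PRMT5) at 1 µM for 15 min and 3 h, 2 libraries each, are given beside them. Untreated cells held for 3 h were not analysed here, so the effect of longer exposure to MS023 and the effect of time in culture or handling cannot be told apart. All libraries come from 1 cell line, and nothing in the labels says that the numbered replicates were separate cultures, so p-values measure only the spread between these libraries.

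Arginine methyltransferases add methyl groups to arginines of histones, RNA-binding proteins and splicing factors. Type I enzymes such as PRMT1, CARM1 and PRMT6 leave asymmetric dimethylarginine, whereas PRMT5, the main type II enzyme, leaves symmetric dimethylarginine on Sm proteins such as SNRPB. Precision run-on sequencing (PRO-seq) labels the RNA held by engaged polymerases in permeabilized cells, so its counts follow ongoing transcription more closely than the amount of mature RNA. Early response genes, stress genes and the ribosomal DNA repeats can all change their polymerase load within minutes to hours.

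Total counts of the 4 MS023 libraries ranged from 5768312 to 9276517, within the series' range of 5768312 to 9606938. Mitochondrially encoded genes took 44.5% and 39.8% of counts at 15 min and 50.5% and 53.2% at 3 h of MS023, against 54.0% and 53.8% in untreated cells. The shares moved with the comparison, so the effect of scaling is given beside the results it touches. Replicates correlated at Pearson's r of 0.977 at 15 min and 0.978 at 3 h on the log2 scale of counts scaled to library size (CPM); the correlation runs over genes, and genes are no independent replicates. The epithelial marker list had a summed level of 890 to 954 CPM with 8 or 9 of 9 genes detected, whereas fibroblast, immune and endothelial lists summed to at most 11.5, 24.5 and 39.0 CPM. In bulk libraries a change in every cell and a change in a part of the cells cannot be told apart, and levels are relative to the bulk of genes because no spike-in was used here.

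Between 15 min and 3 h of MS023, 2640 of 21910 genes tested changed (12.0%; edgeR's quasi-likelihood test, adjusted p under 0.05). Of these, 1676 were higher at 3 h (7.65%) and 964 were lower (4.4%). The changes were mostly moderate: the median log2 fold change was 0.73 among the genes that rose and -0.53 among those that fell, and 450 and 114 genes changed by at least 2-fold. At an unadjusted p under 0.05 there were 5328 genes. In 1675 of the 1676 higher and all 964 lower genes the libraries of the 2 times did not overlap, which was also the case for 52.0% of all genes tested. DESeq2 called 1053 higher and 373 lower. Leaving out replicate 1 at 15 min left 1160 genes, and leaving out replicate 1 or replicate 2 at 3 h left 1649 or 1674.

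The balance between higher and lower depended on the scaling. With library size alone, which shifted the median of all genes from -0.01 to -0.16 on the log2 scale, 778 genes were higher and 1391 lower. With mitochondrial genes left out and nuclear library size alone, 2437 were higher and 406 lower. The genes that rose had a median log2 difference of -0.16 between MS023 at 15 min and untreated cells and of 0.56 between 3 h and untreated cells. For those that fell the medians were 0.18 and -0.37. These comparisons share libraries with the test that chose the genes and are given as descriptions only.

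**Figure D1:**
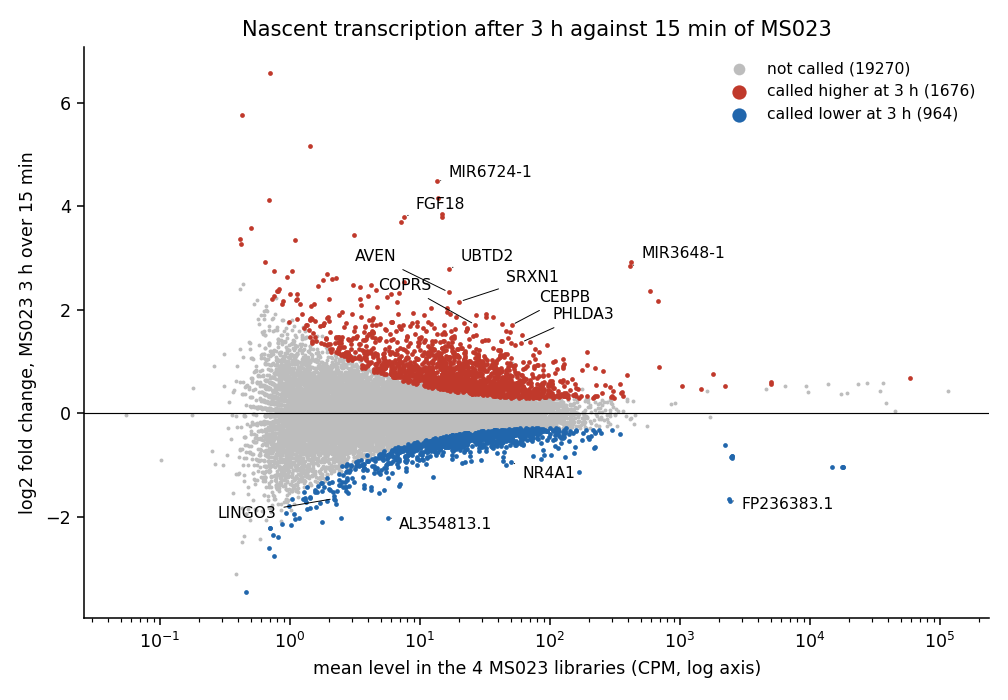
Log2 fold change between 3 h and 15 min of MS023 (vertical) against the mean level over the 4 MS023 libraries in CPM (horizontal, log axis), 1 point per gene tested, with called genes in colour. The 1676 genes higher at 3 h reach larger changes than the 964 lower genes, and MIR6724-1 and MIR3648-1 lie far above most genes of their level.

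FGF18, which encodes a secreted fibroblast growth factor, rose most among protein coding and long noncoding genes of at least 2 CPM whose exons overlap no other gene (chromosome 5, 171419656 to 171457623, plus strand, 5 exons). Its level was 0.757 and 1.35 CPM at 15 min and 16.5 and 11.6 CPM at 3 h of MS023, against 1.29 and 1.64 CPM in untreated cells. The log2 fold change was 3.80 ± 0.33 (SE; edgeR adjusted p 4.3e-11). Both 3 h libraries stood far above both 15 min libraries, which in turn lay close to untreated cells. Its promoter is shown because the share of called genes varied with promoter base composition, described further on. The sequence is from RefSeq (GRCh38.p14, chr5:171419397-171419696, plus strand), runs from 250 bases before to 50 after the annotated start, and has GC boxes (GGGCGG on either strand) in capitals.
FGF18: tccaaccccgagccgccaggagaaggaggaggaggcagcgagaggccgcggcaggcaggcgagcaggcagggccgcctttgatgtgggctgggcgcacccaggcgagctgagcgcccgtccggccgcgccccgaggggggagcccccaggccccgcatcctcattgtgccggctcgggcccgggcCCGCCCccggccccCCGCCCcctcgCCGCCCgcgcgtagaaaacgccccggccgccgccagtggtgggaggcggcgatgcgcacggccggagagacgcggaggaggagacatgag
The window holds 3 GC boxes and has a GC content of 77.7%.

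UBTD2, a ubiquitin-domain protein, went from 4.33 and 3.90 CPM at 15 min to 20.4 and 38.2 CPM at 3 h (log2 fold change 2.79 ± 0.26, edgeR adjusted p 2.8e-10). AVEN, an inhibitor of caspase activation, went from 3.78 and 7.51 CPM to 23.0 and 32.3 CPM (2.34 ± 0.25, adjusted p 5.0e-09). In both genes the replicates at 3 h were unequal, but the lower of them was still above each 15 min library. TMEM117, which encodes a membrane protein, stood at 1.51 and 3.30 CPM and then at 11.3 and 11.6 CPM (2.33 ± 0.27, adjusted p 2.8e-08). Rises were also called in GRAMD2A (log2 fold change 2.31), STOX1 (2.27), FNDC4 (2.20), the growth factor gene NRTN (1.92) and ABCB10, a transporter of the inner mitochondrial membrane (1.91). In none of the genes ranked here did the libraries of the times overlap, because the rule that named them required this. GRAMD2A differed most between its 3 h libraries, at 5.67 and 14.4 CPM. The long noncoding RNA genes AL158152.2, AF213884.3 and AC136475.3 completed the 12 largest rises, with log2 fold changes of 2.47, 2.25 and 1.92. AL133346.1, a long noncoding RNA that overlaps CTGF and is therefore uncertain, went from 0.216 and 0.901 CPM to 5.78 and 5.54 CPM (3.45 ± 0.42). The 12 genes without exon overlap were called under each alternative scaling, filter and fit tried, and without each of the 4 libraries.

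**Figure D2:**
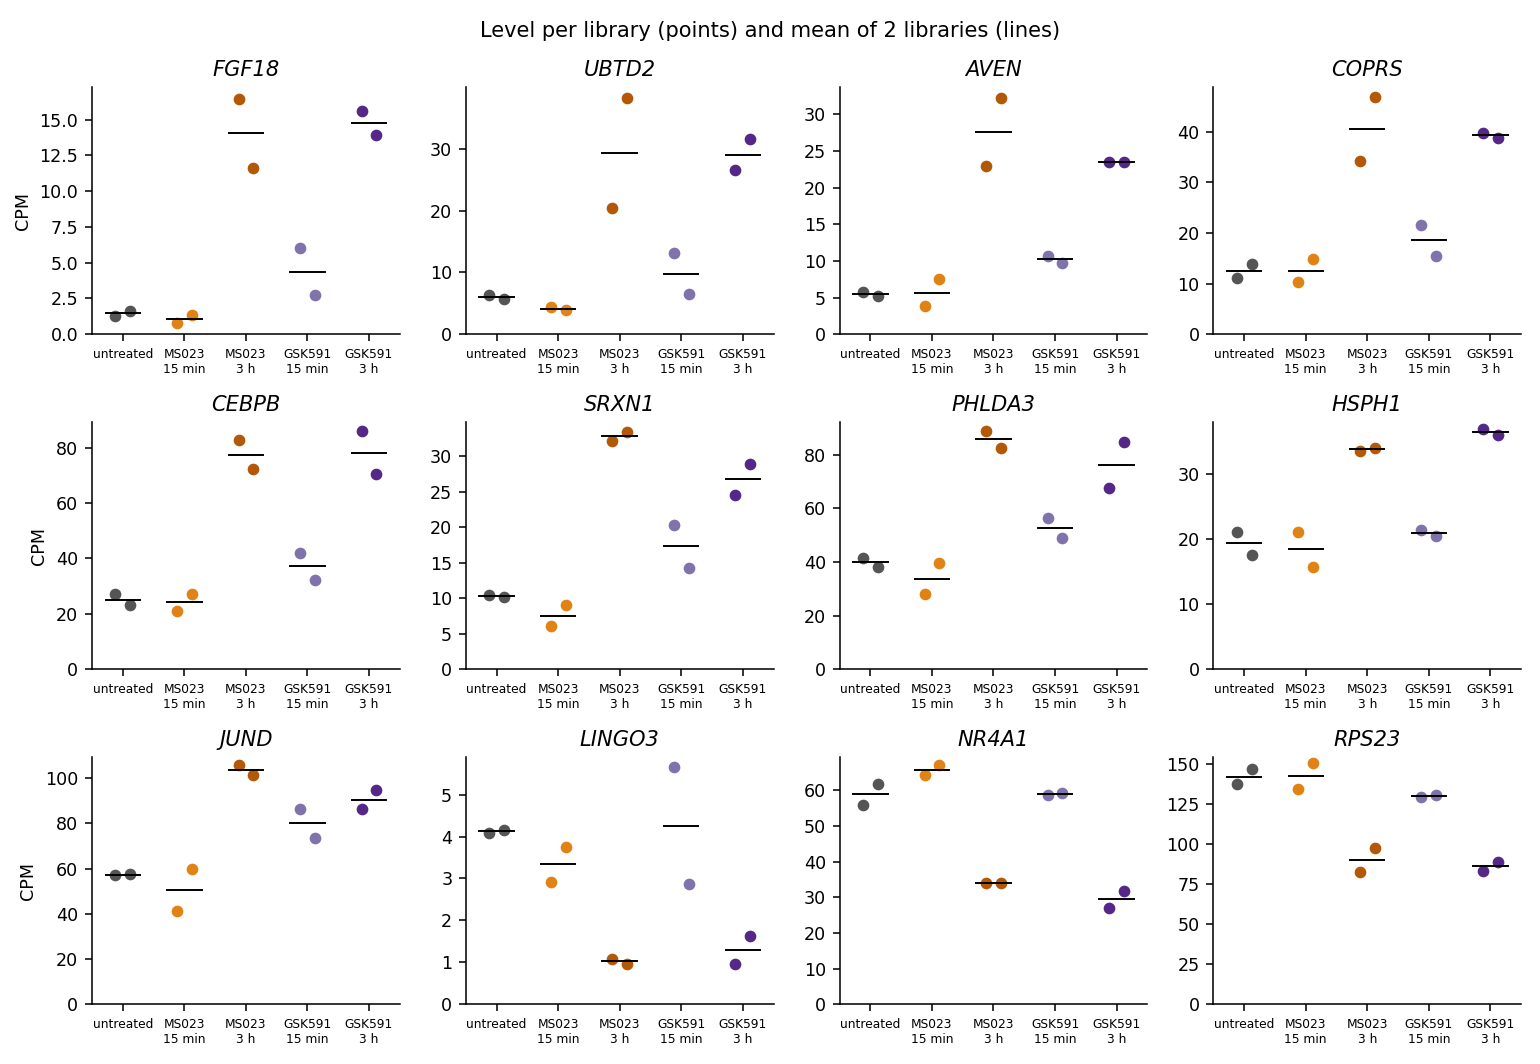
CPM of 12 genes in each library (points) with the mean of 2 libraries (lines), for untreated cells and for 15 min and 3 h of MS023 and GSK591. FGF18, UBTD2, AVEN, COPRS, CEBPB, SRXN1, PHLDA3, HSPH1 and JUND were higher and LINGO3, NR4A1 and RPS23 lower at 3 h than at 15 min of MS023 in both libraries.

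Among genes of at least 2 CPM, the largest rises of any annotation included microRNA genes annotated in the ribosomal DNA repeats on the short arm of chromosome 21. The 4 copies of MIR6724 had log2 fold changes of 4.48 ± 0.32, 4.17 ± 0.27, 3.84 ± 0.36 and 3.78 ± 0.27 (copies 1, 2, 4 and 3). Their summed level was 4.22 and 9.46 CPM at 15 min and 98.7 and 115 CPM at 3 h, beside 7.85 and 8.76 CPM in untreated cells. The list made for these microRNA genes had 9 tested members. These were the 4 copies of MIR6724, 4 copies of MIR3648 and MIR3687, and MIR663AHG. The last is a host gene, is not one of these hairpins and was not shown to lie in the repeats. All 9 were called higher, with a median of 2.93, and DESeq2 called 8. Their size depended on a correction for base composition: the median was 1.48, with 9 called, after trends of each library on transcript GC content and exon length were removed. The mature sequences of the members with an entry are given to show which microRNAs these hairpins encode (RefSeq, GRCh38.p14), with the seed, bases 2 to 8, in capitals. The seeds differ.
miR-6724-5p: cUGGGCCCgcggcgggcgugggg
miR-3648: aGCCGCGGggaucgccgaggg
The MIR3648 and MIR3687 copies, which lie near each other in the repeats, differed between replicates at 15 min, with a sum of 381 and 904 CPM, and reached 4110 and 3020 CPM at 3 h (untreated 199 and 235 CPM). MIR3648-1 alone went from 73.7 and 129 CPM to 781 and 661 CPM (log2 fold change 2.84 ± 0.32, edgeR adjusted p 1.6e-08). The mature microRNA was not measured: the counts are of nascent RNA over the annotated hairpins, and near-identical copies make each copy's value uncertain.

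Of 12 members of that list 2 (MIR663A and MIR663B) were below the filter on low counts and 1 (MIR663BHG) was not in the table. Unlike the MIR6724, MIR3648 and MIR3687 copies, other transcripts annotated in the ribosomal DNA repeats moved the other way. FP236383.1 and FP671120.1, near-identical long noncoding RNA annotations on chromosome 21 (8380665 to 8410645 and 8197620 to 8227646), summed to 6860 and 7820 CPM at 15 min and 2450 and 2140 CPM at 3 h, with 5190 and 5220 CPM in untreated cells. Their log2 fold changes were -1.69 ± 0.16 and -1.66 ± 0.16 (edgeR adjusted p 4.7e-10 and 5.6e-10). The 4 tested 5.8S ribosomal RNA genes were also called lower, with a median of -0.84, from summed levels of 12500 and 13200 CPM to 8680 and 5670 CPM, although both 15 min libraries stood above the 6270 and 5280 CPM of untreated cells. Of the most abundant transcripts annotated there, FP236383.2 went from a mean of 24170 CPM to 11730 CPM (-1.04 ± 0.22, adjusted p 0.00067), and FP236383.3, FP671120.3 and FP671120.4 fell by similar amounts. Because all these genes have near-identical copies, they were counted under the authors' rule for reads with several matches, which is not given in the sources used here.

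Among genes of at least 2 CPM without exon overlap, the largest falls were, beside the FP236383.1 pair, at low-level long noncoding RNAs. AC023137.1 went from 4.33 and 3.60 CPM to 0.763 and 1.25 CPM (log2 fold change -2.02 ± 0.39, edgeR adjusted p 0.00024), and AL121772.1 from 3.46 and 3.60 CPM to 1.09 and 0.970 CPM (-1.75 ± 0.40, adjusted p 0.0022). The rule that named these genes required that their libraries did not overlap between the times. LINC01940 (-1.68), PRECSIT (-1.59), AC245060.5 (-1.55), AC004672.1 (-1.51) and AC009093.6 (-1.48) followed. Protein coding genes among the 12 largest falls were LINGO3, a leucine-rich repeat membrane protein (-1.65 ± 0.41, adjusted p 0.0049), CD300E, a receptor of myeloid cells (-1.55), and IL5, a cytokine gene (-1.51). LINGO3 stood at 2.92 and 3.75 CPM at 15 min and at 1.09 and 0.970 CPM at 3 h. CD300E and IL5 lost their call without 1 or more of the libraries, as did LINC01940, PRECSIT, AC004672.1 and AC009093.6. AL354813.1, an antisense RNA that overlaps exons of SULF2 and is therefore uncertain, had a log2 fold change of -2.02 as well.

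Genes of the arginine methylation machinery were examined next, since MS023 targets these enzymes. Of 11 tested genes of the list, 1 rose and 2 fell, against 7.65% and 4.4% of all genes. The list median was -0.18 against -0.01 for all genes. COPRS, which tethers PRMT5 to histones, went from 10.3 and 14.9 CPM at 15 min to 34.2 and 47.0 CPM at 3 h (log2 fold change 1.71 ± 0.18, edgeR adjusted p 2.8e-09; untreated 11.2 and 13.9 CPM). PRMT5 itself fell from 17.2 and 17.0 CPM to 11.0 and 11.1 CPM, a log2 fold change of -0.63 ± 0.16 (adjusted p 0.0069), and its call was lost without replicate 1 at 15 min, without replicate 1 at 3 h, and with DESeq2. It overlaps PRMT5-AS1 and stood at 13.7 and 13.8 CPM in untreated cells, between the 2 times. PRMT7 had a log2 fold change of -0.34 ± 0.11 (adjusted p 0.042) and overlaps SMPD3. Its call was lost with DESeq2, without either 15 min library, without replicate 2 at 3 h and in 6 of the other alternatives, so that 0 members fell with DESeq2 or without replicate 1 at 15 min. PRMT1, the main type I enzyme, had a log2 fold change of -0.21 (adjusted p 0.16), CARM1 of -0.18 (0.52) and SNRPB of 0.10 (0.64). PRMT6 was below the filter on low counts. The same kind of window is shown for COPRS, the only member that rose (RefSeq, GRCh38.p14, chr17:31858913-31859212, minus strand, GC boxes in capitals). It is placed on 1 annotated start. An ATG with an open reading frame lies near its beginning, so much of the window may lie within the gene. Which start is in use was not tested.
COPRS: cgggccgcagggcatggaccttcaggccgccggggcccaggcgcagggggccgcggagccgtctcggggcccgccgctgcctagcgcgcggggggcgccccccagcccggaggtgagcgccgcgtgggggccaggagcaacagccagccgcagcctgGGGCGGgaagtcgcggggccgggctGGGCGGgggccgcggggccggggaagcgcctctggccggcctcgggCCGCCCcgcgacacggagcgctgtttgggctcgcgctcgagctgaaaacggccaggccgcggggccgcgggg
This COPRS window holds 3 GC boxes and has a GC content of 82.3%, and the boxes are not shown to lie in the promoter in use.

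Heat shock chaperone genes encode proteins that fold and protect other proteins. Of 19 tested genes 11 were called higher at 3 h and 0 lower, against 7.65% and 4.4% of all genes, and the median log2 fold change was 0.44, with 17 values above 0. BAG3, a co-chaperone, went from 15.8 and 20.1 CPM to 42.7 and 33.1 CPM (1.11 ± 0.14, edgeR adjusted p 2.0e-07). HSPH1, a nucleotide exchange factor for HSP70, went from 20.98 and 15.8 CPM to 33.5 and 33.9 CPM (0.85 ± 0.13, adjusted p 8.9e-06). In both genes each 3 h library was above each 15 min library. FKBP4, HSP90AA1, DNAJA1, CHORDC1 and AHSA1 rose by 0.91, 0.76, 0.74, 0.65 and 0.64 on the log2 scale, and STIP1, DNAJB1, HSPB1 and HSPA8 by 0.47, 0.44, 0.44 and 0.33. The inducible HSP70 gene HSPA1A had 62.0 and 56.6 CPM at 15 min and 74.6 and 69.6 CPM at 3 h (0.28 ± 0.10, adjusted p 0.075), and its copy HSPA1B 0.17 (adjusted p 0.34). Without replicate 1 at 15 min or replicate 1 at 3 h 7 members were called, without either of the other libraries 9, and with library size alone 6.

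The heat shock core GAANNTTC, a pair of inverted units bound by heat shock factors (identical on both strands), was present in 7 of 18 promoters of the list found in RefSeq, against 4.5% of 11492 promoters of tested protein coding genes. The 7 genes were HSPA8, HSPB1, DNAJA1 and CHORDC1, which rose, and HSPA1A, HSPA1B and HSPB8, which were not called. A match says only that the letters are in the window. The promoters of the first 4 are given with the matches in capitals (RefSeq, GRCh38.p14: chr11:123062087-123062386, minus strand; chr7:76302423-76302722, plus strand; chr9:33025023-33025322, plus strand; chr11:90223000-90223299, minus strand).
HSPA8: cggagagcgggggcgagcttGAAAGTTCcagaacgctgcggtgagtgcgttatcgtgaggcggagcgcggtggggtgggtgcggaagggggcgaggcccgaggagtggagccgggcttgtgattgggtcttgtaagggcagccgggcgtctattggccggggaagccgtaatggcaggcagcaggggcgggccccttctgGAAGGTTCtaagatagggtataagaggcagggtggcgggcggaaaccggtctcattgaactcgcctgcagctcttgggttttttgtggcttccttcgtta
HSPB1: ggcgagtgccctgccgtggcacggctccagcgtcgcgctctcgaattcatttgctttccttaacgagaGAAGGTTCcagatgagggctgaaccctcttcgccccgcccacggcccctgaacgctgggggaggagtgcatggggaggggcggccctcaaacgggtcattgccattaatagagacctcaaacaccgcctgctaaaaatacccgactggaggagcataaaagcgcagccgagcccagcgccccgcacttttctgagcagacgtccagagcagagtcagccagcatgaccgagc
DNAJA1: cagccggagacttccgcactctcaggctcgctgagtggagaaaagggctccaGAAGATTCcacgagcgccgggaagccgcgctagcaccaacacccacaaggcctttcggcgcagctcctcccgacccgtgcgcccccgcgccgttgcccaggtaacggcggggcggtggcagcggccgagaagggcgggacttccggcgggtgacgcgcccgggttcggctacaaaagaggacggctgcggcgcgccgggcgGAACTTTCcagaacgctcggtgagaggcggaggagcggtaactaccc
CHORDC1: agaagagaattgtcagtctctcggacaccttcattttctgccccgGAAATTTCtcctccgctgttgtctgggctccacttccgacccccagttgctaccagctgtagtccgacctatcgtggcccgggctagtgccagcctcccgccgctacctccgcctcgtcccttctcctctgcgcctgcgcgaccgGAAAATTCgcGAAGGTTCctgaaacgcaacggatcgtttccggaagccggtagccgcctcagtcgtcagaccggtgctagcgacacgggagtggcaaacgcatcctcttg
They hold 2, 1, 2 and 3 matches. The 11 members that rose thus include genes with and without the core in this window.

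Targets of NRF2, the transcription factor of the antioxidant response, gave 11 rises and 1 fall among 22 tested genes, against 7.65% and 4.4% of all genes, with a median log2 fold change of 0.36. Relative to untreated cells the list median was -0.18 at 15 min and 0.11 at 3 h of MS023, given as a description only. SRXN1, which encodes sulfiredoxin, stood at 6.06 and 9.01 CPM at 15 min and at 32.2 and 33.4 CPM at 3 h (2.16 ± 0.18, edgeR adjusted p 1.3e-11; untreated 10.4 and 10.2 CPM). It overlaps AL121758.1, so part of the reads may belong to that gene. The ferritin heavy chain gene FTH1 went from 69.0 and 73.1 CPM to 140 and 142 CPM (0.99 ± 0.11, adjusted p 9.5e-09). GCLC and GCLM, which encode both subunits of the enzyme that limits glutathione synthesis, rose by 0.77 and 0.96 on the log2 scale. For GCLM the levels were 24.9 and 26.4 CPM at 15 min, below the 35.9 and 41.0 CPM of untreated cells, and 46.3 and 53.8 CPM at 3 h. NQO1 rose by 0.44 (adjusted p 0.0082) and OSGIN1 fell by 0.36 on the log2 scale (adjusted p 0.0076). HMOX1, TXNRD1 and SLC7A11 were not called, with log2 fold changes of 0.23, 0.01 and 0.28. With library size alone 7 members were called higher, and without replicate 2 at 15 min 6. The antioxidant core TGACNNNGC was found on either strand in 5 of 16 promoters of the list and in 14.9% of all 11492, and GCLM was the only one of the 5 that rose (RefSeq, GRCh38.p14, chr1:93909381-93909680, minus strand, match in capitals).
GCLM: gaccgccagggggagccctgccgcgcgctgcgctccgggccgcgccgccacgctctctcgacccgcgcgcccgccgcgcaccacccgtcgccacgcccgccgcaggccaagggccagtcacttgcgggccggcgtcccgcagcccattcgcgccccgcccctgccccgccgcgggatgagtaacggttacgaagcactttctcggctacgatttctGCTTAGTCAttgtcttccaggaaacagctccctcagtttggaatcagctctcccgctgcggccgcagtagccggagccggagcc

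Of 28 tested p53 target genes 11 rose and 0 fell, against 7.65% and 4.4% of all genes, with a median of 0.30. PHLDA3, a repressor of AKT signalling, went from 27.9 and 39.8 CPM to 89.1 and 82.7 CPM (log2 fold change 1.37 ± 0.13, edgeR adjusted p 1.8e-10). CDKN1A, the p21 cell cycle inhibitor, went from 21.1 and 15.9 CPM to 35.9 and 29.2 CPM (0.80 ± 0.15, adjusted p 0.00016), and MDM2, the ubiquitin ligase that limits p53, rose by 0.55. In PHLDA3 and CDKN1A no 15 min library reached a 3 h library. SESN2, BTG2, GDF15 and FDXR rose by 0.85, 0.81, 0.64 and 0.62, and BAX, a pro-apoptotic gene, by 0.46. Between 8 and 11 members were called when 1 library was left out. Earlier results of these data already showed this list higher at 3 h than in untreated cells, so its direction here is no independent evidence.

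The integrated stress response list gave 6 genes higher and 0 lower of 21, but its median was -0.09 and the call count fell to 1 or 2 without any 1 of the 4 libraries, and to 1 with library size alone. Over all genes 7.65% were higher and 4.4% lower. The clearest member of the list was CEBPB, a transcription factor, which went from 21.1 and 27.2 CPM to 82.8 and 72.2 CPM (log2 fold change 1.70 ± 0.14, edgeR adjusted p 2.3e-11). It overlaps CEBPB-AS1. Its relative CEBPD, in the glucocorticoid list, rose from 42.8 and 48.8 CPM to 113 and 102 CPM (1.24 ± 0.12, adjusted p 3.9e-10). In untreated cells CEBPB stood at 26.99 and 23.21 CPM and CEBPD at 51.6 and 53.4 CPM, so only the 3 h libraries were far from the untreated level. TRIB3, AARS1 and NUPR1 were also among the 6 members called higher. The central factor ATF4 had a log2 fold change of -0.18 (adjusted p 0.25), and its targets DDIT3 and ASNS had -0.57 (0.097) and 0.02 (0.97).

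Immediate early genes split in both directions, with 6 higher and 5 lower of 35 tested, against 7.65% and 4.4% of all genes, and a median of 0.08. JUND, an AP-1 subunit, went from 41.2 and 59.9 CPM to 106 and 101 CPM (log2 fold change 1.05 ± 0.12, edgeR adjusted p 1.9e-08). BTG1, IER5L, SRF, IER5 and KLF4 also rose, by 1.14, 0.93, 0.89, 0.88 and 0.62. NR4A1, an orphan nuclear receptor, fell from 64.3 and 67.3 CPM to 33.9 and 34.1 CPM (-0.95 ± 0.11, adjusted p 2.0e-08), and the AP-1 genes JUN, FOSL1 and FOS fell by 0.45, 0.43 and 0.40 on the log2 scale. KLF6 fell by 0.31 on that scale. Within AP-1, JUND thus rose while JUN, FOS and FOSL1 fell. EGR1 was at 2.81 and 4.65 CPM at 15 min and 3.05 and 2.49 CPM at 3 h and was not called. With mitochondrial genes left out and nuclear library size alone the split was 10 higher and 2 lower, and without replicate 1 or 2 at 15 min or replicate 1 or 2 at 3 h 1, 2, 2 and 3 members were called lower.

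**Figure D3:**
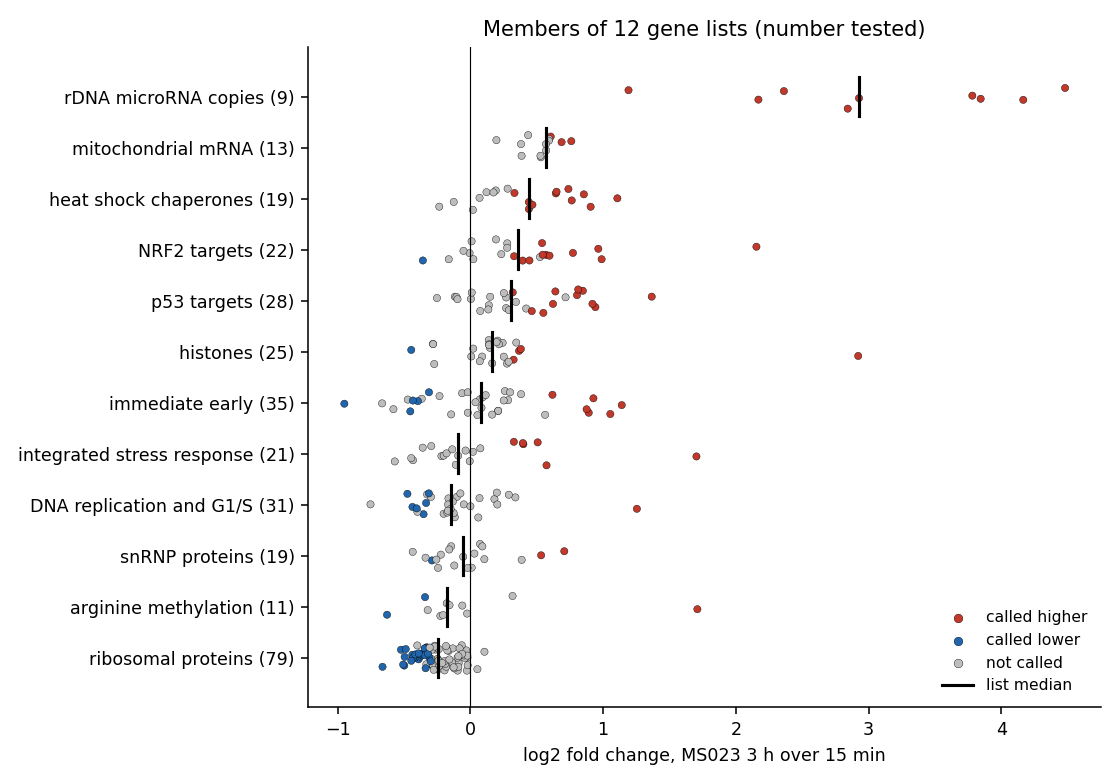
Log2 fold change between 3 h and 15 min of MS023 for the tested members of 12 gene lists, 1 point per gene in a colour for its call, with the list median as a black line. Heat shock, NRF2 and p53 genes lie mostly to the right of 0, ribosomal protein genes mostly to the left, and immediate early genes on both sides.

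Of 79 tested cytosolic ribosomal protein genes 29 fell by small amounts and 0 rose, against 4.4% and 7.65% of all genes. Of all 79 only 2 had a log2 fold change above 0, and the median was -0.25. RPS23 went from 134 and 150 CPM to 82.2 and 97.5 CPM (log2 fold change -0.66 ± 0.10, edgeR adjusted p 4.2e-06), and RPS16 from 205 and 211 CPM to 139 and 151 CPM (-0.52 ± 0.10, adjusted p 0.00015). RPS27A and RPS9 fell by 0.50 and 0.45 on the log2 scale. The number called lower was 36 with library size alone, 6 with nuclear library size alone, 12 with DESeq2, and 10, 6, 8 and 14 without replicate 1 or 2 at 15 min and replicate 1 or 2 at 3 h. The direction of the median was the same in each of these.

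DNA replication and G1/S genes gave 1 rise and 6 falls among 31, against 7.65% and 4.4% of all genes. MCM5 and MCM7, helicase subunits, fell by 0.44 and 0.33 on the log2 scale, and the licensing factor CDC6 by 0.35. Without replicate 1 or 2 at 15 min or replicate 1 or 2 at 3 h the number called lower was 3, 2, 2 and 1. The gene that rose was SLBP, which binds histone mRNA, from 9.52 and 15.8 CPM to 28.1 and 30.6 CPM (1.25 ± 0.18, edgeR adjusted p 2.5e-06). Histone genes themselves gave 4 higher and 1 lower of 25, but 0 higher and 4 lower with library size alone, and 2, 1, 3 and 1 higher without each library in the same order. Genes of G2 and mitosis gave 2 higher and 1 lower of 26, and 0 higher and 1 lower with library size alone.

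Splicing and RNA-binding genes, whose proteins carry many methylated arginines, changed little as groups. The shares over all genes were 7.65% higher and 4.4% lower. Of 19 snRNP protein genes 2 rose and 1 fell, of 18 SR protein genes 1 rose and 2 fell, and of 24 genes for RGG-motif proteins 3 rose and 0 fell, with medians of -0.06, 0.06 and -0.02. SRSF7 went from 220 and 238 CPM to 153 and 181 CPM (-0.46 ± 0.10, edgeR adjusted p 0.0016), and TRA2A fell by 0.52 on the log2 scale. SRSF9, KHDRBS1 and PABPN1 rose by 0.66, 0.85 and 0.61. None of the 3 calls in the snRNP list held without each of the 4 libraries. Pol I and nucleolar factors gave 1 rise and 2 falls among 33. The rise was UBTF, the factor that binds ribosomal DNA, by 0.53 (adjusted p 0.00023). It lost the call with library size alone and without replicate 1 at 15 min. Pause control genes gave 2 rises, MEPCE and HEXIM2, and 0 falls among 22. With library size alone the direction turned in the snRNP and pause control lists, to 0 higher and 2 lower and to 0 higher and 1 lower. Hosts of small nucleolar RNAs gave 0 rises and 3 falls among 22, and 2 rises and 0 falls with mitochondrial genes left out and nuclear library size alone.

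Mitochondrial transcripts were called higher at 3 h in 3 of 13 mRNA genes and 5 of 14 tRNA genes, with medians of 0.57 and 0.52. Among all genes tested 7.65% were higher and 4.4% lower. The 2 mitochondrial rRNA genes were not called and had a median of 0.24. ND5, a subunit of complex I, went from 48680 and 41180 CPM to 68410 and 76210 CPM (log2 fold change 0.69 ± 0.23, edgeR adjusted p 0.047), beside 72980 and 62750 CPM in untreated cells. The level at 15 min was thus the low point of the 3 groups. The number of mRNA genes called was 12 with no count filter, 9 after GC and exon length trends were removed and 1 with a stricter filter, while their median stayed at 0.56, 0.58 and 0.57. Without replicate 2 at 15 min, 0 of these genes were called. Without replicate 2 at 3 h 0 mRNA and 2 tRNA genes were called, and without replicate 1 at 15 min 3 and 2.

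Gene families named for transcripts of RNA polymerase III were taken by symbol, and which copies that polymerase transcribes was not tested. Of 75 tested genes of the 7SL family 7 were called higher and 0 lower, with a median of 0.13 and a range from -1.3 to 2.23. Of 14 tested genes of the U6 family 0 were higher and 1 lower. Over all genes 7.65% were higher and 4.4% lower, so the 7SL count of rises is near the share of all genes. A separate list of 21 genes for such RNAs had 16 members below the filter on low counts and 1 not in the table. Of its 4 tested members VTRNA1-1 was not called and the other 3 rose, so they do not stand for the whole list. RN7SL2 and RN7SL3, which encode the RNA of the signal recognition particle, rose by 0.90 ± 0.21 and 0.93 ± 0.19 on the log2 scale, and the neuronal RNA gene BCYRN1 by 1.78 ± 0.52 (edgeR adjusted p 0.0022, 0.00075 and 0.018). RN7SL2 stood at 485 and 477 CPM at 15 min, 861 and 935 CPM at 3 h, and 715 and 637 CPM in untreated cells. BCYRN1 had only 7 and 7 raw counts at 15 min and 27 and 23 at 3 h. Its 3 h counts were near the 28 and 23 of untreated cells. DESeq2 called 0 of the 3, and 2 were called without replicate 1 or 2 at 15 min or replicate 1 at 3 h and 1 without replicate 2 at 3 h. Of 17 tested 5S ribosomal RNA genes, which form a tandem array of near-identical copies, 14 were called higher (median 1.28), with a summed level of 30.4 and 48.6 CPM at 15 min and 93.1 and 84.2 CPM at 3 h. The copies share reads and are not independent. The 13 tested RNA polymerase II snRNA genes gave 0 calls in either direction, with a median of 0.01.

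The remaining lists gave few calls, to be read beside the 7.65% of all genes that rose and the 4.4% that fell. Among glucocorticoid targets CEBPD and NR3C1 rose and ANGPTL4, TSC22D3 and MT1X fell, of 15 tested. The NF-kB and cytokine list gave 2 rises and 3 falls of 20, the interferon list 0 and 1 of 20, the hypoxia and glycolysis list 3 and 1 of 22, the cholesterol list 2 and 0 of 24, and the list of DNA damage and R-loop genes 1 and 1 of 16. With library size alone 0 members of the cholesterol and NF-kB lists were called higher. In the TGF-beta and YAP list SMAD7, an inhibitory SMAD, rose from 35.5 and 38.6 CPM to 72.3 and 66.1 CPM (log2 fold change 0.91 ± 0.11, edgeR adjusted p 8.2e-08). GYS1, the muscle-type glycogen synthase gene, stood at 183 and 189 CPM at 15 min and 298 and 359 CPM at 3 h (0.82 ± 0.10, adjusted p 1.2e-07), around the 279 and 285 CPM of untreated cells. Of 16 clock genes PER1 fell, by 0.91 on the log2 scale (adjusted p 3.1e-05). NR1D2 was called higher, with a log2 fold change of 0.72 (edgeR adjusted p 0.049), but its libraries overlapped, at 3.68 and 7.36 CPM at 15 min and 7.197 and 10.5 CPM at 3 h. It lost the call with library size alone, with the compared groups alone, after GC and exon length trends were removed, with DESeq2, and without replicate 1 at 15 min or replicate 2 at 3 h.

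By annotation, 9.83% of 14351 protein coding genes rose and 4.95% fell, against 3.25% and 3.87% of 4491 long noncoding RNA genes. Of 23 genes of the ribosomal RNA class 60.9% rose and 17.4% fell, and these are multi-copy genes. By chromosome the share of protein coding genes that rose ranged from 5.9% on chromosome 22 to 12.6%, leaving out chromosome Y with 9 genes tested. The exons of 45.2% of genes that rose and 50.2% of those that fell overlap another gene's exons, against 44.1% of all tested. These overlapping genes are uncertain because the strand setting is not given in the sources used here.

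The share of genes that rose was lowest at a promoter GC content of 50 to 60% and increased over the 3 bins above it. It was 7.57% of 1057 nuclear protein coding genes with a promoter GC content of at most 50%, 5.24% from 50 to 60%, 8.58% from 60 to 70%, 15.3% from 70 to 80% and 19.0% of 431 genes above 80%. The share that fell showed no such order, at 3.31%, 5.44%, 5.3%, 4.14% and 6.5%. The median level also rose over these bins, from 7.18 to 17.8 CPM, and genes at higher levels were called more often, so level and promoter composition moved together and their parts were not tested. Promoters were found for 80.1% of 14338 genes. A GC box was present in 68.4% of all promoters and in 78.1% of those of genes that rose. After trends of each library on transcript GC content and exon length were removed, the shares that rose were 7.28%, 5.68%, 8.22%, 14.9% and 16.9% in the same order. Over the same interval in GSK591 the shares that rose also increased with promoter GC content, at 1.99%, 2.96%, 4.63%, 6.48% and 7.19%.

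Genes with few exons rose more often than genes with many. Of 437 protein coding genes with 1 exon block 16.2% rose, and the share went down to 6.25% of 2702 genes with over 20 blocks, while the share that fell lay between 4.0% and 6.33%. With GSK591 the shares that rose over the same time were 9.61% and 2.48%.

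**Figure D4:**
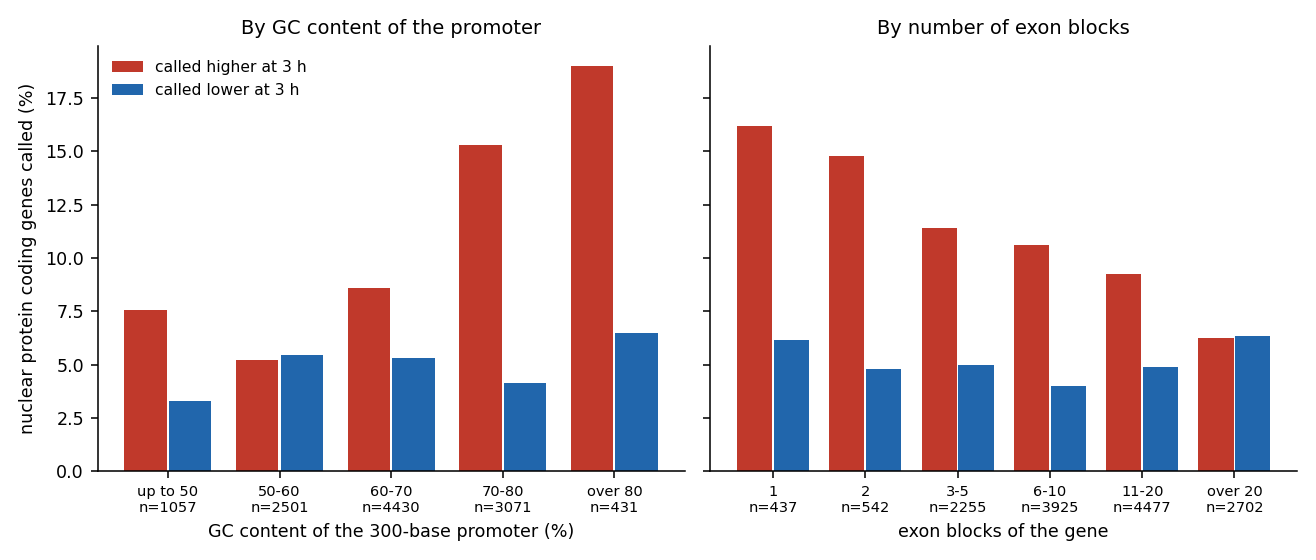
Percentage of nuclear protein coding genes called higher (red) or lower (blue) at 3 h against 15 min of MS023, by GC content of the promoter (left) and by number of exon blocks (right), with the number of genes under each pair of bars. The red bars increase from 5.24% to 19.0% over the upper 4 GC bins and decrease from 16.2% to 6.25% with exon number.

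The same interval in GSK591, which shares no library with the MS023 comparison, was used to see where MS023 differed. With GSK591 1405 genes changed (6.41%), 799 higher (3.65%) and 606 lower (2.77%). Of these 809 were also called with MS023, which is 30.6% of the MS023 and 57.6% of the GSK591 calls, with 516 higher and 290 lower in both. FGF18 rose with GSK591 by 1.75, COPRS by 1.08, CEBPB by 1.07 and HSPH1 by 0.80, and NR4A1 and RPS23 fell by 1.00 and 0.60 on the log2 scale. Heat shock genes gave 13 higher and 0 lower with GSK591 and a median of 0.50, and ribosomal protein genes 0 higher and 14 lower with a median of -0.20. NRF2 targets gave 5 higher and 0 lower with a median of 0.12. Targets of p53 gave 11 higher and 0 lower with a median of 0.34. The list of ribosomal DNA microRNA copies, which also holds MIR663AHG, gave 9 higher and 0 lower with a median of 1.74. Differences between the inhibitors in the number of list members called were not tested.

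The test of the difference between the 2 time changes called 123 genes (0.561%), of which 103 (0.47%) had the larger value in MS023 and 20 (0.0913%) the smaller. At an unadjusted p under 0.05 there were 2194. Of the 103 genes, 102 rose with MS023 and 27 with GSK591, with median log2 fold changes of 1.06 and 0.18. The inhibitors were further apart at the start than at the end: the median log2 ratio of GSK591 to MS023 levels in these 103 genes was 0.69 at 15 min and -0.19 at 3 h (mean CPM plus 0.5), a description of the values that chose them. FGF18 illustrates this, with 6.01 and 2.74 CPM at 15 min and 15.6 and 14.0 CPM at 3 h of GSK591, so that the 3 h levels of both inhibitors overlapped. Its difference was 2.04 ± 0.46 on the log2 scale (edgeR adjusted p 0.022).

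Some genes changed with MS023 and not measurably with GSK591. SMAD7 stood at 59.6 and 58.9 CPM at 15 min and 52.5 and 63.1 CPM at 3 h of GSK591, a log2 fold change of -0.04, and the difference to MS023 was 0.95 ± 0.15 (edgeR adjusted p 0.0012). GYS1 had a log2 fold change of -0.01 with GSK591 and a difference of 0.83 ± 0.14 (adjusted p 0.0019). SRXN1 rose with both inhibitors, by 0.62 with GSK591, and differed by 1.53 ± 0.24 (adjusted p 0.0012). RNGTT, the mRNA capping enzyme gene, was the protein coding gene among the 5 largest negative differences: it went from 7.24 and 9.76 CPM to 4.80 and 4.30 CPM with MS023 and from 4.36 and 3.46 CPM to 6.33 and 6.74 CPM with GSK591 (-1.61 ± 0.35, adjusted p 0.021).

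This difference rests on few libraries. Without replicate 1 of MS023 at 15 min 1 gene remained called, without replicate 1 of GSK591 at 15 min 16, without replicate 1 of GSK591 at 3 h 27, and without replicate 2 of MS023 at 3 h 79, whereas 192 were called without replicate 2 of MS023 at 15 min. With library size alone 26 genes were called, 5 higher and 21 lower.

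**Figure D5:**
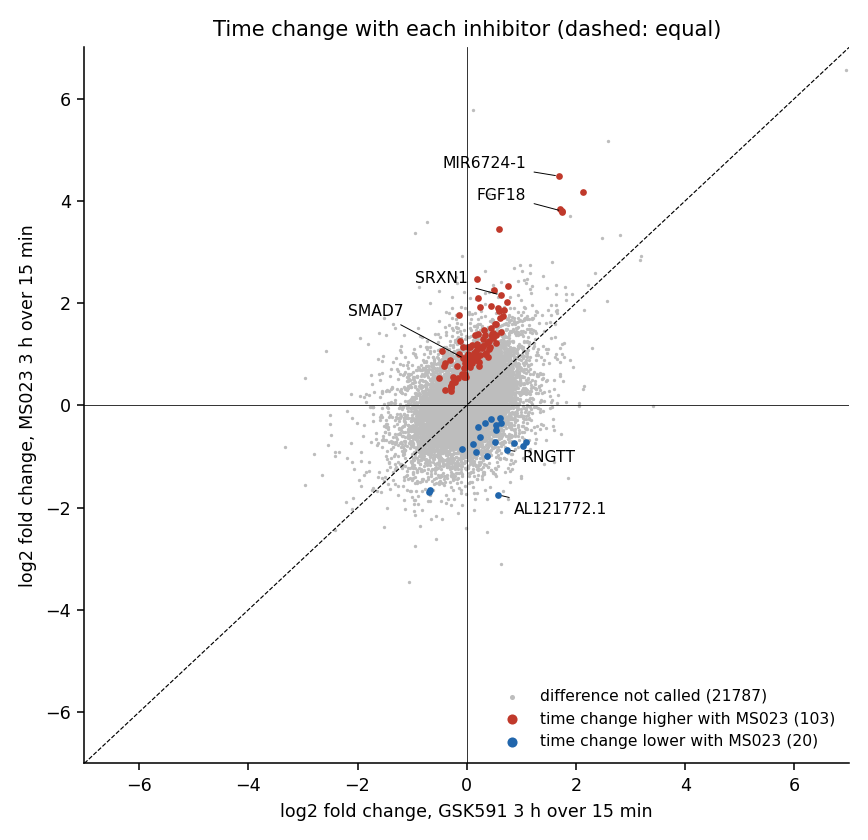
Log2 fold change from 15 min to 3 h with MS023 (vertical) against that with GSK591 (horizontal), 1 point per gene tested, with the 123 genes whose time changes differed in colour and a dashed line of equal change. The 103 red genes lie above the line, most of them with a rise in MS023 and a smaller one in GSK591, and the 20 blue genes lie below it.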

How the data were processed

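Nascent RNA was measured by PRO-seq in A549 cells, and the deposited table holds raw counts per gene for 58780 genes in 14 libraries. Counts were made by the authors with featureCounts 2.0.1 on hg38, per the submitters' processing notes. The aligner, strandedness and the treatment of duplicate reads and of reads with several matches are not given in the sources used here. All identifiers matched GENCODE release 29.

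Counts were tested as deposited with edgeR 4.0.16 (R 4.3.3): its expression filter (21910 genes left), TMM scaling and the quasi-likelihood test, in 1 fit of all 14 libraries with 1 coefficient per group and 7 residual degrees of freedom. Replicates varied with a biological coefficient of 0.0728. Compared were 3 h minus 15 min of MS023, the same for GSK591, and their difference. A gene was called at an adjusted p (Benjamini-Hochberg) under 0.05, and ± is the standard error. CPM were computed on TMM-scaled library sizes. Scripts were tested on simulated data.

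The members and lists were chosen with earlier results of these data known. Named were, among called genes of at least 2 CPM whose libraries did not overlap and that were protein coding or long noncoding, the 12 largest rises and falls without exon overlap and the 4 largest of any annotation, the 5 largest differences between inhibitors in each direction, and up to 4 members per list with the smallest p, with members of defining role. The microRNA and ribosomal RNA families and the remaining members named were chosen after their values were seen. Alternatives were DESeq2 1.42.0, other scalings and filters, the compared libraries alone, a replicate block, GC and length trends, equal depth, and leaving out each library. Libraries given dexamethasone entered the fit only.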

Additional observations from a re-analysis of the deposited data

Results flagged for a closer look

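For 28 named genes the change from 15 min to 3 h differed between MS023 and GSK591 in the test of the difference itself (edgeR adjusted p under 0.05). The values below are log2 changes with MS023 minus those with GSK591. The 10 with the largest differences, 5 in each direction (AL133346.1, MIR6724-1, AL158152.2, MIR6724-4, MIR6724-3, AL121772.1, AC120114.1, AL160291.1, AC009309.1 and RNGTT), lost their call without replicate 1 of MS023 at 15 min and also without replicate 1 of GSK591 at 15 min. Over all genes tested 1 and 16 were called without these libraries, and the other 18 genes were not followed singly.

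Among protein coding genes the difference was 2.04 for FGF18, 1.67 for NRTN, 1.57 for TMEM117 and 1.53 for SRXN1. It was smaller for SMAD7 (0.95), JUND (0.88), PHLDA3 (0.84), GYS1 (0.83), GCLM (0.80), BTG1 (0.71) and SMAD6 (0.68). RNGTT, the capping enzyme gene, was the protein coding gene with a negative value among the 28 named genes, at -1.61. Over all genes tested, 8 of the 20 with a negative difference were protein coding.

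Long noncoding RNA genes with a larger change in MS023 were AL133346.1 (2.86), which overlaps CTGF, AL158152.2 (2.28) and AF213884.3 (1.74). Those with a smaller one were AL121772.1 (-2.33), AC120114.1 (-1.81), AL160291.1 (-1.81) and AC009309.1 (-1.62), of which the last 3 overlap exons of other genes.

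In the ribosomal DNA repeats MIR6724-1, MIR6724-4, MIR6724-3 and MIR6724-2 differed by 2.79, 2.14, 2.05 and 2.03, and FP236383.1 and FP671120.1 by -1.0 and -0.98. In this test MIR6724-4 and MIR6724-3 also lost the call after GC and exon length trends were removed. With GSK591 all 4 MIR6724 copies were called higher too (median 1.72), and the FP236383.1 pair lower (-0.68). Their MIR6724 sums were 40.3 and 17.4 CPM at 15 min and 90.7 and 113 CPM at 3 h of GSK591. The MIR3648 and MIR3687 copies had medians of 2.6 with MS023 and 2.4 with GSK591, and 0 were called in the difference. Among mitochondrial genes MT-TA differed by 1.21, ATP8 by 1.17 and MT-TC by 0.71. The share of mitochondrial counts was 42.2% ± 3.3 at 15 min and 51.8% ± 2.0 at 3 h of MS023, and 47.8% ± 1.2 and 45.4% ± 2.7 with GSK591 (SD, n = 2 each). Its part in these differences was not tested.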

How the results depend on the processing

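The count of 2640 genes for MS023 was 1426 with DESeq2 and 1160 to 1789 when 1 library was left out. For GSK591 the count of 1405 was 712 with library size alone, 622 with DESeq2 and 388 to 665 without 1 library. The 123 genes that differed between inhibitors became 26 with library size alone, 223 with mitochondrial genes left out and library size alone, 206 with no count filter, 81 at equal nuclear depth, 41 with DESeq2 and 1 to 192 without 1 library. The cause of these shifts was not tested, except that a left-out library leaves fewer samples. Mitochondrial genes left out with nuclear library size alone shifted the median of all genes to 0.10. The other alternatives left all 3 counts within 1.5 times. Replicate numbers did not pair the libraries: deviations of same-numbered libraries correlated at -0.07 to 0.10, and at -0.0027 between the times of MS023. With the replicate block 2739 genes were called, 2632 of them shared with the 2640, and 147 in the difference. Of 121 named genes called for MS023, 0 changed direction; 33 lost their call with DESeq2, 29 with library size alone, 0 with the replicate block and 35 to 41 without 1 library. Low counts limit the folds of genes near 1 CPM: FNDC4 had 17 and 3 counts at 15 min.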
